A study of Mus musculus with 12 samples.

Results

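Insulin and the insulin-like growth factors act through 2 related receptor tyrosine kinases, and the 8 genes described here encode those receptors, their docking substrates and the adaptors that restrain them. The members are the adaptors Grb10, Grb7 and Grb14, the insulin receptor substrates Irs1, Irs2 and Irs4, the insulin receptor Insr and the receptor of insulin-like growth factor 1, Igf1r. They were found as every probe set whose single gene symbol in the platform annotation is one of these names, which gave 18 probe sets for 8 of the 18193 genes on the array. Grb10 and Irs4 were selected on their measured signals, Grb10 for its difference between haploid and diploid cells and Irs4 for its difference between the haploid lines. These differences are therefore given as descriptions with no p-value, and the other 6 genes were added as relatives of these 2 or as the receptors they serve.

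Ligand binding makes the receptors phosphorylate themselves and the Irs proteins. Phosphorylated Irs proteins recruit phosphatidylinositol 3-kinase, whose product activates Akt, and Akt in turn stimulates mTORC1 and keeps FoxO transcription factors out of the nucleus. Grb10 and Grb14 bind the active receptor and inhibit it, while Grb7, the founding member of that adaptor family, is best known as a partner of ErbB receptors. Grb10 is imprinted in the mouse, with expression from the maternal allele in most tissues and from the paternal allele in neurons.

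The measurements come from mouse epiblast stem cells (EpiSCs), pluripotent cells of the post-implantation type. There were 4 groups of 3 biological replicates: haploid EpiSC-2 and haploid EpiSC-1, both of strain 129Sv, and diploid EpiSC-2 and diploid EpiSC-1, both of strain B6D2F1. All were grown in N2B27, a defined medium whose supplements contain insulin, with bFGF and Activin A, so ploidy and strain cannot be told apart here. The sources used here do not give how the lines were derived, whether each is 1 clone, whether the single chromosome set of the haploid cells was maternal or paternal, or how many cells were still haploid at harvest.

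Values are MAS5 signals on a linear scale, and the array medians were 65.7 to 76.5 in haploid and 63.6 to 66.8 in diploid cells. The EpiSC markers Pou5f1, Sox2 and Nanog were well above the signal filter of 62.6 in every line. Summed signals of 10 EpiSC markers were 39999 to 42066 in haploid EpiSC-2 and 27448 to 27751 in haploid EpiSC-1. They were 51177 to 52346 in diploid EpiSC-2 and 64778 to 68829 in diploid EpiSC-1. Between the ploidies 5 of the 10 were called lower in haploid cells and 1 higher, beside 8.35% and 10.7% of all tested genes. When each line counted as 1 value, 1 passed as lower, Tdgf1, and 1 as higher, Sox2, beside 3.34% of all tested genes in either direction. Otx2 and Fgf5, which mark the primed epiblast, averaged 74.0 and 86.9 in haploid EpiSC-1, against 2133 or more in each of the other lines. Sums over 12 fibroblast feeder markers ran between 26154 and 29487 in haploid cells and between 1229 and 2267 in diploid cells, with Fap below the filter on all 12 arrays and no marker listed at 0. Summed signals of 10 endoderm markers were 6270 to 6695 in haploid EpiSC-2, 984 to 1198 in haploid EpiSC-1, 3001 to 3345 in diploid EpiSC-2 and 5448 to 5829 in diploid EpiSC-1. On the actin control probe sets the 3′ signal was 1.34 to 1.42 times the 5′ signal in haploid cells and 1.46 to 1.68 times in diploid cells. The part of these differences in the results below was not tested. In such bulk RNA, fewer cells of a type and less RNA per cell cannot be told apart.

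RefSeq promoter windows of build GRCm38.p6, each with 250 bases upstream of an annotated start, were matched for 6 of the 8 genes, with 7 windows in all. The stretches of Irs1, Irs2 and Irs4 are shown first because the substrates share a short sequence although their signals do not follow each other. Capitals mark the longest stretch that Irs2 and Irs4 have in common, which is 17 bases long, and the first 10 bases of it, which Irs1 also holds.
Irs1, chr1:82291527-82291576, minus strand: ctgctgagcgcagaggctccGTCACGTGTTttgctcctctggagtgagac
Irs2, chr8:11008939-11008995, minus strand: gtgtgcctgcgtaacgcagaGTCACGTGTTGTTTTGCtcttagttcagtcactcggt
Irs4, chrX:141725337-141725393, minus strand: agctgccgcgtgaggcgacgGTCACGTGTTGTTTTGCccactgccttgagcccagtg

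The capitals begin 117 bases upstream of the annotated start in Irs1, 46 bases upstream in Irs2 and 156 bases upstream in Irs4. Among 32851 promoter windows, searched on both strands, the sequence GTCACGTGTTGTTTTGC was found in 2, those of Irs2 and Irs4 (0.00609%). The sequence GTCACGTGTT was found in 23 windows (0.0700%), and CACGTG, the E-box core that lies inside both, in 1978 (6.02%). The match was noticed when the windows were read and is a description of the letters alone.

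Grb10 has 2 annotated starts, and the 120 bases before each are shown because they differ in their CG dinucleotides, which are in capitals. Which start the cells used was not measured by these probe sets.
Grb10, chr11:12037421-12037540, minus strand: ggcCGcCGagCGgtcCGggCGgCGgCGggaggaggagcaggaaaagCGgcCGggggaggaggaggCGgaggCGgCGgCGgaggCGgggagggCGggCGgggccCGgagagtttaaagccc
Grb10, chr11:12027972-12028091, minus strand: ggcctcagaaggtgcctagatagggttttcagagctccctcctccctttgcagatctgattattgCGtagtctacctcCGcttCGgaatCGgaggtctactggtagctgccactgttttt

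Over the whole 250 bases, the first of these windows held 40 CG dinucleotides, more than 98.7% of all windows, and the second held 8, against a median of 6.

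Of the 18 member probe sets, 13 passed the filter on mean log2 signal and were tested, at least 1 for each gene. The 5 others, 2 of Insr and 1 each of Igf1r, Irs4 and Grb14, lay below it. The nearest probe sets to the threshold were both of Igf1r, with a geometric mean signal of 63.9 for 1446303_at inside and 48.0 for 1452108_at outside. A probe set that is low in some lines can pass through the lines where it is high, so the tested probe sets do not stand for all members.

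Grb10, the inhibitory adaptor, was the member with the largest loss of signal in haploid cells. Its brightest probe set, 1425458_a_at, read 1836, 1780 and 1834 in haploid EpiSC-2, 276, 295 and 302 in haploid EpiSC-1, 8014, 7518 and 8258 in diploid EpiSC-2, and 9117, 9295 and 9161 in diploid EpiSC-1. The 4 lines did not overlap, and the haploid lines lay farther from each other than the diploid lines did. Relative to both diploid lines averaged, the signal was 4.70-fold lower in haploid EpiSC-2 and 29.4-fold lower in haploid EpiSC-1. Averaged over the lines, the log2 difference was -3.55 ± 0.48 (SE, 6 arrays from 2 lines of each ploidy), and between the haploid lines it was 2.64 ± 0.05.

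The other Grb10 probe sets were dimmer and had the same order of ploidies. Probe set 1430164_a_at averaged 89.7 ± 21.8 in haploid EpiSC-2, 41.4 ± 6.9 in haploid EpiSC-1, 287.8 ± 21.0 in diploid EpiSC-2 and 300 ± 56 in diploid EpiSC-1 (SD, n = 3 each). Probe set 1425457_a_at averaged 46.5 ± 6.0, 37.1 ± 12.5, 138.5 ± 21.6 and 208.5 ± 35.3 in the same order of lines. Their log2 differences between the ploidies were -2.28 ± 0.49 and -2.05 ± 0.56. Between the haploid lines the first differed by 1.10 ± 0.21, with no overlap of arrays, and the second by 0.37 ± 0.25, with overlap. On 1425457_a_at every haploid array lay below the signal filter, at 28.1 to 53.4, so this probe set was tested through the diploid lines. On 1430164_a_at every array of haploid EpiSC-1 lay below it, at 33.6 to 46.6. The differences on both are therefore uncertain in size. Summed signals of 7 neural markers, of interest because of the paternal expression of Grb10 in neurons, were 1147 to 1795 in haploid and 3195 to 4015 in diploid cells, with Neurog2 below the filter in every line. Olig1, of the oligodendrocyte lineage, made most of that gap, at 6.3 and 35 in haploid EpiSC-2 and EpiSC-1, against 1710 and 2206 in diploid EpiSC-2 and EpiSC-1. Sox1 went the other way, at 182 and 88.3 in those haploid lines against 21.3 and 18.7 in those diploid lines, and the means of Nes and Tubb3 did not separate the ploidies. Their part in the Grb10 signal was not tested.

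**Figure D1:**
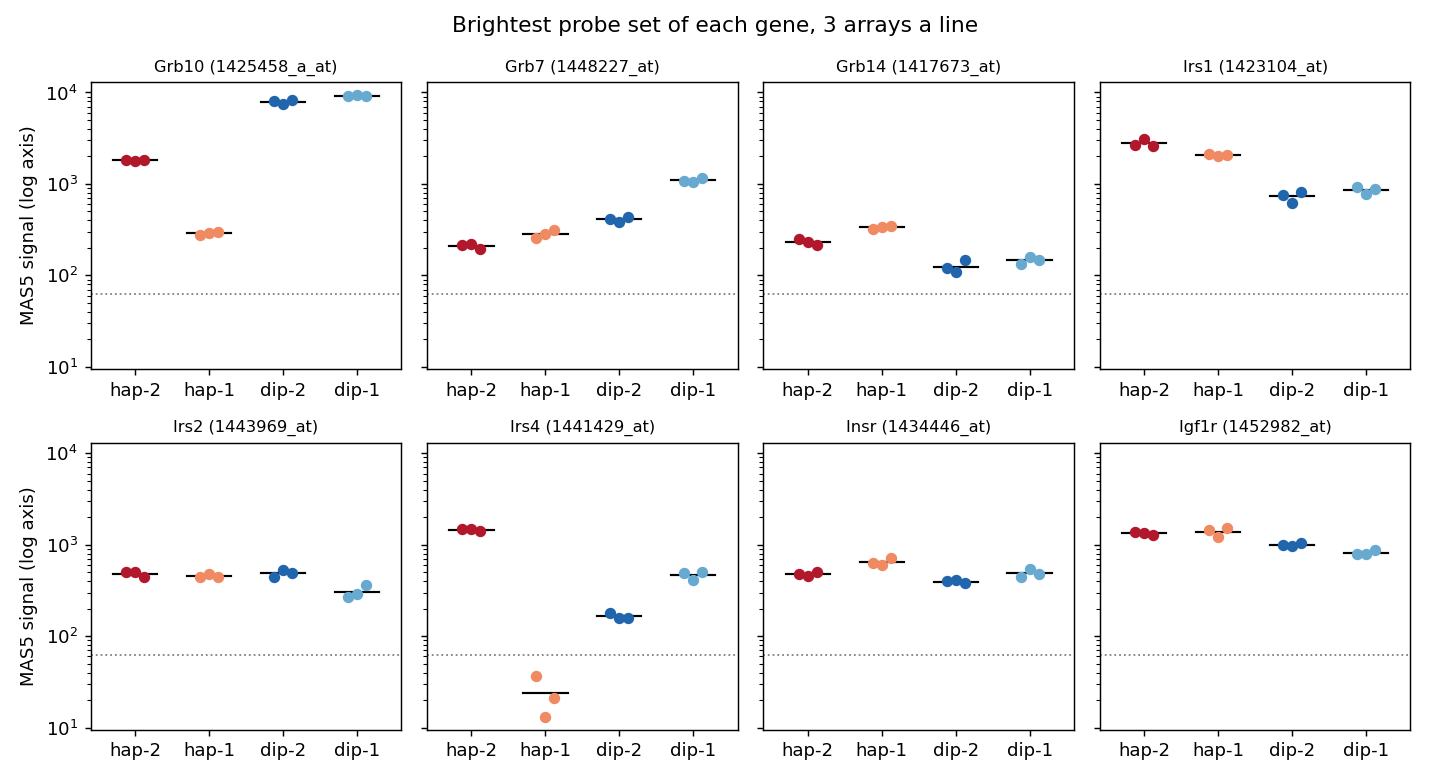
MAS5 signal (log axis) of the brightest probe set of each of the 8 genes on the 12 arrays, by line, with hap for haploid and dip for diploid EpiSC. Points are arrays, bars are means, and the dotted line is the signal filter of 62.6. Grb10 is lower in both haploid lines than in both diploid lines, Irs1 is higher, and Irs4 is highest in haploid EpiSC-2 and below the filter in haploid EpiSC-1.

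Grb7 was the other adaptor with a lower signal in haploid cells, but its diploid lines differed as well. Its single probe set, 1448227_at, read 214, 221 and 196 in haploid EpiSC-2, 260, 282 and 316 in haploid EpiSC-1, 415, 388 and 437 in diploid EpiSC-2, and 1089, 1063 and 1172 in diploid EpiSC-1. No line overlapped with another. Grb7 fell by 1.47 ± 0.34 on the log2 scale in haploid cells (limma, adjusted p = 0.00716, or 0.170 when each line counts as 1 value). Diploid EpiSC-2 was lower than diploid EpiSC-1 by a similar amount, at -1.42 ± 0.09 (adjusted p = 1.60e-08). Without diploid EpiSC-1 the difference between ploidies was -0.76 (adjusted p = 0.0776), and without haploid EpiSC-2 it was -1.25 (adjusted p = 0.0516). Grb10 and Grb7 both lie on chromosome 11, whose 917 tested genes had a median difference of -0.30 in haploid cells, against 0.00 for all tested genes. Of the 917 genes, 207 were called lower and 38 higher in haploid cells, beside 8.35% and 10.7% of all tested genes. The part of this shift in the Grb10 and Grb7 signals was not tested.

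Grb14, the adaptor that inhibits the insulin receptor in liver and retina, had a higher signal in haploid cells. Probe set 1417673_at read 253, 234 and 217 in haploid EpiSC-2, 319, 341 and 351 in haploid EpiSC-1, 120, 109 and 146 in diploid EpiSC-2, and 135, 158 and 146 in diploid EpiSC-1. All haploid arrays were above all diploid arrays, while the diploid lines overlapped. Grb14 rose by 1.06 ± 0.31 in haploid cells (adjusted p = 0.0303), but its adjusted p was 0.145 with line means and 0.211 without haploid EpiSC-1. Leaving out single arrays also took it past the threshold, at 0.0530 without haploid EpiSC-1 replicate 2 and 0.0522 without replicate 3. Its other probe set, 1457526_at, averaged 13.2 or less in every line.

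Irs1, the widely expressed substrate, rose in haploid cells more clearly than any other tested member. It read 2637, 3137 and 2578 in haploid EpiSC-2, 2115, 2018 and 2098 in haploid EpiSC-1, 753, 627 and 824 in diploid EpiSC-2, and 923, 770 and 888 in diploid EpiSC-1. The diploid lines overlapped, and both haploid lines lay above them. The log2 difference was 1.60 ± 0.24 (adjusted p = 2.83e-04), and Irs1 was the member probe set that also passed with line means as the units (adjusted p = 0.0304). Its signal was 3.51-fold that of the diploid lines in haploid EpiSC-2 and 2.62-fold in haploid EpiSC-1.

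Irs2, the substrate central to insulin action in liver and beta cells, did not pass the test between ploidies. Its signal averaged 481 ± 33 in haploid EpiSC-2, 455 ± 20 in haploid EpiSC-1, 487 ± 46 in diploid EpiSC-2 and 307 ± 49 in diploid EpiSC-1. The haploid lines and diploid EpiSC-2 overlapped, and diploid EpiSC-1 lay below them. The difference between ploidies was 0.28 ± 0.28 (adjusted p = 0.582), and diploid EpiSC-2 was higher than diploid EpiSC-1 by 0.68 ± 0.11 (adjusted p = 1.51e-04).

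Irs4, an X-linked substrate with expression in few adult tissues, split the haploid lines. Its brighter probe set, 1441429_at, read 1496, 1470 and 1427 in haploid EpiSC-2, 37.0, 13.2 and 21.0 in haploid EpiSC-1, 180, 160 and 157 in diploid EpiSC-2, and 493, 406 and 502 in diploid EpiSC-1. Every line stood apart, with haploid EpiSC-2 highest, then diploid EpiSC-1 and diploid EpiSC-2, and haploid EpiSC-1 lowest. Haploid EpiSC-2 exceeded haploid EpiSC-1 by 6.07 on the log2 scale, with the lower line under the signal filter on all 3 arrays, so that the size is uncertain. With a pseudocount of 16 the difference was 5.26. Against the diploid lines, haploid EpiSC-2 was 5.29-fold higher and haploid EpiSC-1 12.7-fold lower, and the ploidies as wholes overlapped.

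The diploid comparison did not choose Irs4, and there it could be tested. Diploid EpiSC-2 was lower than diploid EpiSC-1, with a log2 difference of -1.49 ± 0.26 (adjusted p = 1.92e-04). The second Irs4 probe set, 1422248_at, lay below the filter, at 54.5 ± 9.2 in haploid EpiSC-2, 15.0 ± 8.5 in haploid EpiSC-1, 25.1 ± 18 in diploid EpiSC-2 and 40.2 ± 21.4 in diploid EpiSC-1. Its means had the same order of lines as the brighter probe set, but neighbouring lines in that order overlapped.

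Among the receptors, Igf1r was higher in haploid cells on its 3 bright probe sets. Probe set 1428967_at read 1109, 1307 and 999 in haploid EpiSC-2, 1473, 1317 and 1524 in haploid EpiSC-1, 753, 734 and 771 in diploid EpiSC-2, and 662, 695 and 777 in diploid EpiSC-1. All haploid arrays lay above all diploid arrays on this probe set and on the 2 others, 1426565_at and 1452982_at. The difference was 0.80 ± 0.22 for 1428967_at (adjusted p = 0.0216) and 0.87 ± 0.28 for 1426565_at (adjusted p = 0.0471). The brightest probe set, 1452982_at, was at 0.58 ± 0.20 and did not pass (adjusted p = 0.0530, over the alternatives 2.04e-04 to 0.238). None of the 3 passed with line means, with adjusted p values of 0.145, 0.139 and 0.238. A 4th tested probe set, 1446303_at, was near the filter and at 0.38 ± 0.59 (adjusted p = 0.753).

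Insr did not pass the test between ploidies. Its one bright probe set, 1434446_at, read 478, 457 and 505 in haploid EpiSC-2, 629, 600 and 707 in haploid EpiSC-1, 402, 407 and 378 in diploid EpiSC-2, and 441, 545 and 479 in diploid EpiSC-1. Haploid EpiSC-1 lay above the other lines, while haploid EpiSC-2 overlapped with diploid EpiSC-1. The difference between ploidies was 0.34 ± 0.23 (adjusted p = 0.377). The dim Insr probe sets averaged between 24.2 and 50.7 in the lines and could not be read.

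Counted together, 5 of the 9 tested probe sets of the 6 genes added beside Grb10 and Irs4 passed between the ploidies, 4 higher and 1 lower in haploid cells. Of all 19837 tested probe sets 15.9% passed, 9.37% higher and 6.54% lower. The 6 genes were listed with earlier results of these data known, so their counts are descriptions. The arrays of the ploidies did not overlap for 6 of these 9, against 28.8% of all tested probe sets. The 6 were those of Irs1, Grb7 and Grb14 and the Igf1r probe sets 1426565_at, 1428967_at and 1452982_at, so they are not 6 separate genes. With line means as the units 1 of the 9 passed, against 3.03%. With 2 lines of each ploidy the p-values of the block fit rest on few lines. On simulated data 445 of the 582 probe sets that this fit called were unchanged ones. All its calls between the ploidies, here and in the lists, carry this limit, so p-values with line means are given beside them. By the brightest probe set of each of the 6 genes, Irs1 and Grb14 were called higher and Grb7 lower between the ploidies, where 19.1% of all 11105 tested genes were called.

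**Figure D2:**
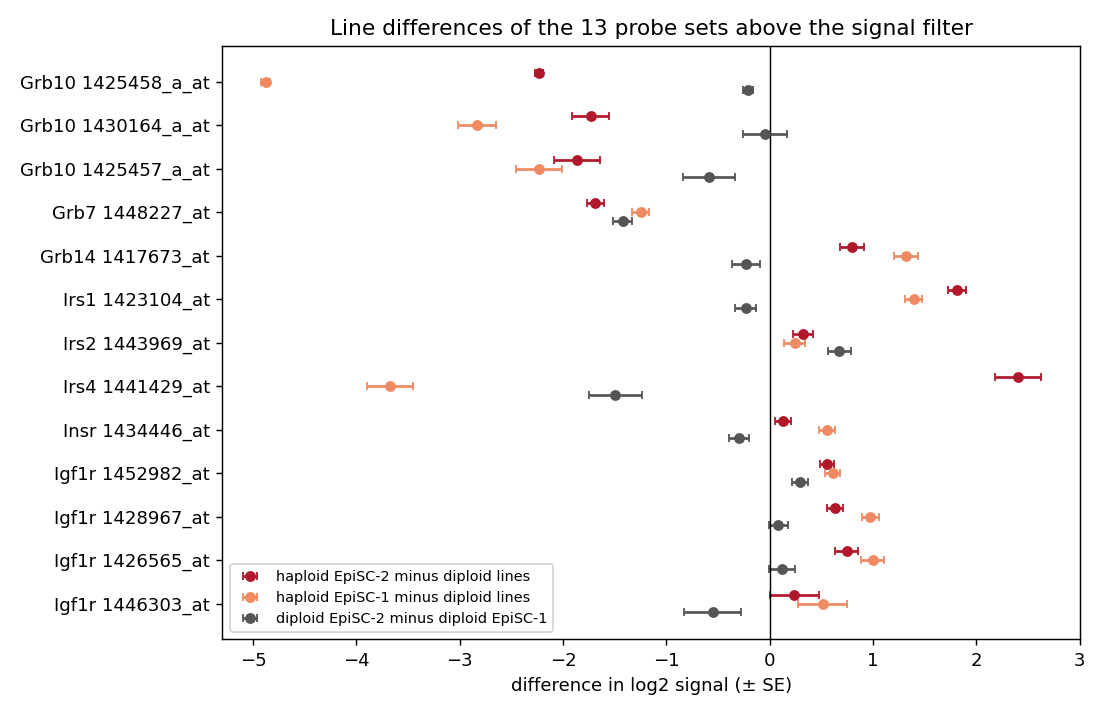
Difference in log2 signal (± SE, horizontal axis) of haploid EpiSC-2 and haploid EpiSC-1 from the mean of the diploid lines, and of diploid EpiSC-2 from diploid EpiSC-1, for the 13 member probe sets above the signal filter. The haploid lines share their diploid comparison. Irs4 is at 2.40 in haploid EpiSC-2 and -3.67 in haploid EpiSC-1, whereas Irs1 and the 3 bright Igf1r probe sets lie above 0 and Grb10 and Grb7 below 0 in both.

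Between the haploid lines, 5 of the same 9 probe sets passed, 1 higher and 4 lower, while 49.5% of all tested probe sets did, 22.8% higher and 26.7% lower, so the count says nothing particular about these genes. Irs1 was the probe set called higher in haploid EpiSC-2, by 0.42 ± 0.10 (adjusted p = 0.00280). Grb14 differed by -0.52 ± 0.14, Grb7 by -0.44 ± 0.09, Insr by -0.43 ± 0.09 and Igf1r probe set 1428967_at by -0.34 ± 0.09 (adjusted p = 0.00492, 0.00131, 0.00151 and 0.00648). Each of these is smaller than the same gene's shift from the diploid lines in at least 1 haploid line. The replicates measure spread within a line only.

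Between the diploid lines, 6 of the 13 member probe sets passed, 2 higher and 4 lower in diploid EpiSC-2, against 53.3% of all tested probe sets, 22.4% higher and 30.9% lower. Besides Grb7, Irs4 and Irs2, these were Grb10 on its brightest probe set (-0.21 ± 0.05, adjusted p = 0.00174), Insr (-0.30 ± 0.09, adjusted p = 0.0143) and Igf1r on 1452982_at (0.29 ± 0.08, adjusted p = 0.00657). The Insr call was lost without diploid EpiSC-1 replicate 2 (adjusted p = 0.0777) and with quantile normalization (adjusted p = 0.123). The other bright Igf1r probe sets did not pass. Their log2 differences were 0.08 for 1428967_at and 0.12 for 1426565_at (adjusted p = 0.468 and 0.444). The Grb10 difference between the diploid lines was small beside the 2.64 between the haploid lines.

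The genes around Grb10 and Irs4 were read to see whether their neighbours followed them. In the gene table of assembly GRCm38.p6, LOC102631979, a long non-coding RNA gene, lies within the span of Grb10. Its probe set read 155, 121 and 173 in haploid EpiSC-2, 12.1, 39.9 and 46.2 in haploid EpiSC-1, 445, 521 and 583 in diploid EpiSC-2, and 495, 573 and 500 in diploid EpiSC-1. This is the same order of haploid lines below diploid lines as Grb10, with haploid EpiSC-1 lowest. Whether the probe set reads RNA of Grb10 itself was not tested.

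Outside that span, Ddc, the gene of aromatic amino acid decarboxylase, averaged 366 ± 36 in haploid EpiSC-2, 395 ± 23 in haploid EpiSC-1, 449 ± 23 in diploid EpiSC-2 and 542 ± 68 in diploid EpiSC-1. Its difference between ploidies was -0.37 ± 0.24 (adjusted p = 0.353). Fignl1, a DNA repair gene, differed by -0.72 ± 0.21 (adjusted p = 0.0272, and 0.150 with line means), and the actin nucleator gene Cobl by -0.66 ± 0.62 (adjusted p = 0.549). The non-coding genes 1700042O10Rik and 4930554G24Rik were below the filter.

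Beside Irs4, the basement membrane collagen gene Col4a5 averaged 756 ± 64 in haploid EpiSC-2, 692 ± 24 in haploid EpiSC-1, 105 ± 7 in diploid EpiSC-2 and 78.4 ± 13.1 in diploid EpiSC-1. It separated the ploidies and not the haploid lines, whose difference was 0.12 ± 0.13 (adjusted p = 0.446). Nxt2, an RNA export factor, differed between the haploid lines by 0.91 ± 0.16, higher in haploid EpiSC-2 (adjusted p = 2.32e-04). Atg4a and Acsl4 differed between the haploid lines by -0.21 and -0.06 (adjusted p = 0.0768 and 0.516), while Col4a6 and Kcne1l were below the filter. The 378 tested genes of the X chromosome had a median difference of 0.25 between haploid EpiSC-2 and haploid EpiSC-1.

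**Figure D3:**
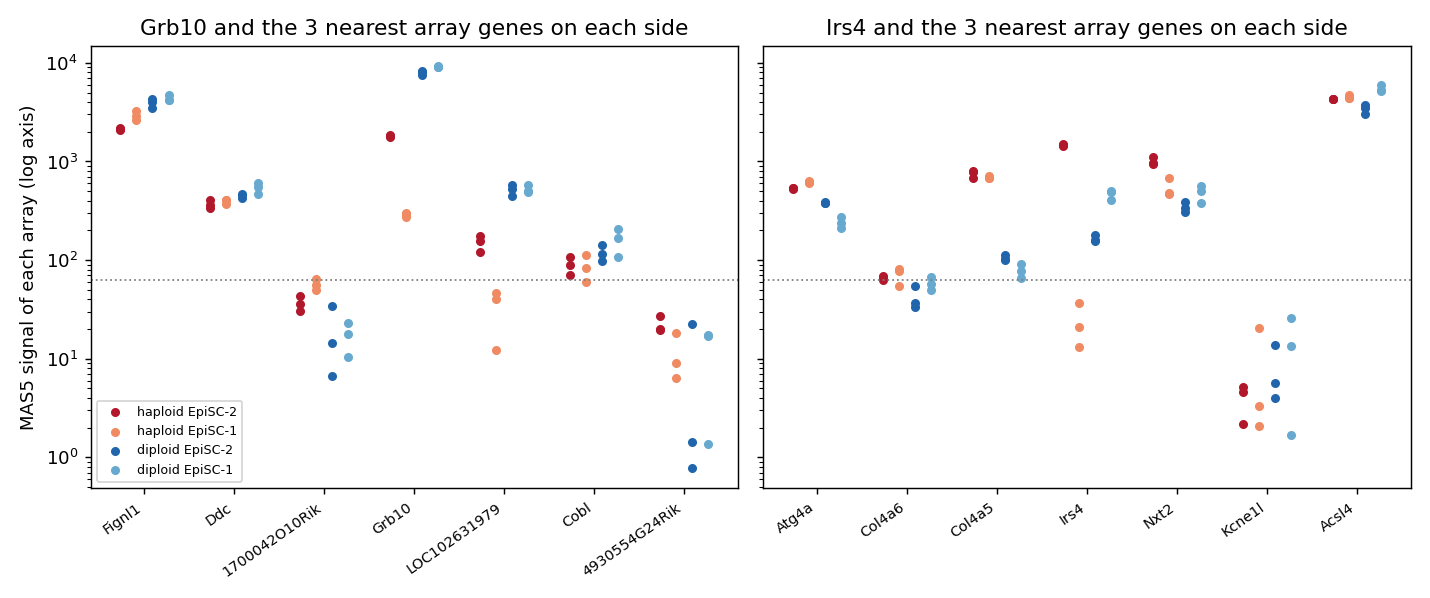
MAS5 signal (log axis) of each array for Grb10 and Irs4 and the 3 nearest genes on each side that have a probe set on the array, in chromosome order. LOC102631979 lies within the span of Grb10 and, like it, is lowest in haploid EpiSC-1, at 12.1 to 46.2, and highest in the diploid lines. No neighbour of Irs4 spans its range between haploid EpiSC-2 and haploid EpiSC-1.

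The genes whose log2 signals over the 12 arrays were most like the brightest Grb10 probe set were the neurofilament gene Nefl (r = 0.998), L1td1 (0.998), the succinate dehydrogenase gene Sdha (0.997), the ribosomal protein gene Rpl14 (0.996) and the splicing regulator gene Esrp1 (0.995). Nefl averaged 1397 ± 59 in haploid EpiSC-2, 668 ± 8 in haploid EpiSC-1, 2760 ± 110 in diploid EpiSC-2 and 2809 ± 20 in diploid EpiSC-1. The genes most like Irs4 were the tRNA modification gene Yrdc (0.991), the pepsinogen gene Pga5 (0.987), the endoderm transcription factor gene Foxa2 (0.987), Dido1 (0.982) and the fatty acid elongation gene Hacd1 (0.980). Pga5 averaged 1228 ± 99 in haploid EpiSC-2, 56.9 ± 9.1 in haploid EpiSC-1, 189 ± 30 in diploid EpiSC-2 and 532 ± 24 in diploid EpiSC-1, and Foxa2 had the same order of lines. The summed endoderm markers given above had this order too, and their part in the Irs4 signal was not tested. These likenesses rest on 4 lines, not on 12 separate ones, and are descriptions.

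Of 14 listed ligands, binding proteins and other receptors, 7 were tested. Between the ploidies 4 rose and 2 fell, beside 10.7% and 8.35% of all 11105 tested genes by their brightest probe set, and the median difference was 1.16 against 0.00 over all genes. Igf2, the fetal growth factor that binds Igf1r, averaged 784 ± 79 in haploid EpiSC-2, 2131 ± 88 in haploid EpiSC-1, 782 ± 14 in diploid EpiSC-2 and 430 ± 59 in diploid EpiSC-1, and rose by 1.16 ± 0.37 in haploid cells (adjusted p = 0.0416, and 0.282 with line means). The means of haploid EpiSC-2 and diploid EpiSC-2 differed by less than their SD. Igf2r, the receptor that clears Igf2, fell by 1.62 ± 0.23 (adjusted p = 2.03e-04, and 0.0405 with line means).

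Among the binding proteins, Igfbp5 averaged 2027 ± 80 in haploid EpiSC-2, 8627 ± 481 in haploid EpiSC-1, 85.3 ± 10.5 in diploid EpiSC-2 and 163 ± 15 in diploid EpiSC-1. It rose by 5.15 ± 0.46 (adjusted p = 1.77e-06, and 0.0204 with line means). Igfbp7 rose by 3.63 ± 0.38 and Igfbp4 by 2.13 ± 0.31, and Igfbp3 fell by 1.16 ± 0.25 (adjusted p = 8.39e-06, 2.00e-04 and 0.00431, and 0.0132, 0.0655 and 0.178 with line means). After median centring of the arrays 3 genes of the list rose and 2 fell. The fibroblast feeder markers given in the opening were also higher in haploid cells, 8 of 10 tested, beside 10.7% of all tested genes. Postn averaged 40.4 and 34.6 and Col6a1 45.5 and 45.3 in diploid EpiSC-2 and EpiSC-1, under the filter. Postn and Col6a1 were tested through the haploid lines where they are high, so the count of 8 is partly fixed by the filter. In diploid EpiSC-1 alone, Col1a1, Col3a1, Col6a2 and Pdgfrb also averaged under the filter, at 30.2, 51.8, 60.3 and 33.2. The binding protein gene Igfbp7 averaged 59.9 in that line, so the sizes of these differences are uncertain. Thy1 did not pass, at 118 and 132 in haploid EpiSC-2 and EpiSC-1 against 109 and 203 in diploid EpiSC-2 and EpiSC-1. The part of the feeder markers in the values of this list was not tested.

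Downstream, most genes did not pass between the ploidies, where 10.7% of all tested genes were called higher and 8.35% lower, or 7.42% and 9.84% after median centring. Of 27 tested receptor-proximal adaptors and inhibitors, 2 rose, the Ras exchange factor gene Sos1 (0.88 ± 0.17, adjusted p = 0.00221, and 0.146 with line means) and Nedd4 (1.30 ± 0.25, adjusted p = 0.00190, and 0.0691 with line means), which encodes a ubiquitin ligase that binds Grb10. Of 36 tested genes of the PI3K, Akt and mTOR group, 6 rose and 2 fell. Pik3r1, the regulatory subunit that docks on Irs proteins, averaged 638 ± 21 in haploid EpiSC-2, 778 ± 92 in haploid EpiSC-1, 250 ± 17 in diploid EpiSC-2 and 187 ± 5 in diploid EpiSC-1.

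Pik3r1 rose by 1.70 ± 0.24 and Akt1, the kinase downstream of it, by 1.51 ± 0.21 (adjusted p = 1.48e-04 and 1.66e-04). They were the genes of this group that also passed with line means (adjusted p = 0.0369 and 0.0346). The kinase gene Sgk1 rose by 1.14 ± 0.24 (adjusted p = 0.00345, and 0.165 with line means), while Rps6, a ribosomal protein phosphorylated downstream of mTORC1, fell by 0.93 ± 0.16 (adjusted p = 9.39e-04, and 0.116 with line means). Foxo3 was the other gene of the group that fell, at -1.70 ± 0.43 (adjusted p = 0.0120, and 0.0872 with line means). Of 11 tested genes of the Ras and MAP kinase group, 2 rose, Rps6ka3 (1.16 ± 0.22, adjusted p = 0.00191, and 0.120 with line means) and Araf (0.71 ± 0.18, adjusted p = 0.0146, and 0.202 with line means). List medians were 0.23, 0.20 and 0.23 for these 3 groups, against 0.00 for all tested genes. Median centring of the arrays moved all genes by -0.12 at their median in this comparison, and the PI3K group then had 3 genes higher and 2 lower, or 4 and 4 with quantile normalization.

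Between the haploid lines these groups were divided. Among the receptor-proximal genes 4 were called higher and 10 lower in haploid EpiSC-2, among the PI3K, Akt and mTOR genes 9 higher and 10 lower, and among the Ras and MAP kinase genes 5 higher and 3 lower. Over all tested genes 55.3% were called in this comparison, 25.0% higher and 30.3% lower. The list medians were -0.12, -0.10 and -0.04, but after median centring they were 0.04, 0.06 and 0.12, so no direction is given for these groups. Socs3, a feedback inhibitor of cytokine and insulin signalling, differed by -1.67 ± 0.11, the docking protein gene Gab2 by -1.13 ± 0.15 and Grb2, the adaptor that carries Sos1, by -0.80 ± 0.07 (adjusted p = 2.08e-08, 1.75e-05 and 2.98e-07). Socs2, another member of the Socs family, was higher in haploid EpiSC-2 by 0.68 ± 0.05 (adjusted p = 3.10e-08). Foxo3 and Foxo1 were also lower in haploid EpiSC-2, with differences of -1.20 ± 0.17 and -0.83 ± 0.08, whereas Sgk1, which phosphorylates FoxO proteins, was higher by 0.89 ± 0.05 (adjusted p = 3.24e-05, 1.00e-06 and 5.87e-09). Deptor, an inhibitor of mTOR, was higher by 0.73 ± 0.08 (adjusted p = 2.67e-06). In the Ras group Rasa1, a Ras GTPase-activating protein gene, was higher by 0.58 ± 0.05, Map2k2 by 0.44 ± 0.08 and Rps6ka3 by 0.41 ± 0.07, and Braf differed by -0.36 ± 0.05 (adjusted p = 5.68e-07, 3.96e-04, 2.34e-04 and 2.13e-05).

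Between the diploid lines the receptor-proximal group had 12 genes called higher and 7 lower in diploid EpiSC-2, the PI3K, Akt and mTOR group 12 and 11, and the Ras and MAP kinase group 4 and 2. Over all tested genes 55.2% were called there, 26.1% higher and 29.1% lower. The ligands and binding proteins had 4 higher and 2 lower between the diploid lines, and 3 higher and 4 lower between the haploid lines. In haploid EpiSC-2 against haploid EpiSC-1, Igfbp5 differed by -2.09 ± 0.09, Igf2 by -1.45 ± 0.09, Igfbp4 by -1.36 ± 0.08 and Igfbp3 by 0.51 ± 0.04 (adjusted p = 4.74e-10, 2.09e-08, 8.96e-09 and 1.74e-07). In the analysis with line means, in which 3.34% of all tested genes passed between the ploidies, 3 of the 7 ligand and binding protein genes passed, as did 2 of the 36 PI3K, Akt and mTOR genes and 0 of the receptor-proximal, Ras and FoxO target genes.

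**Figure D4:**
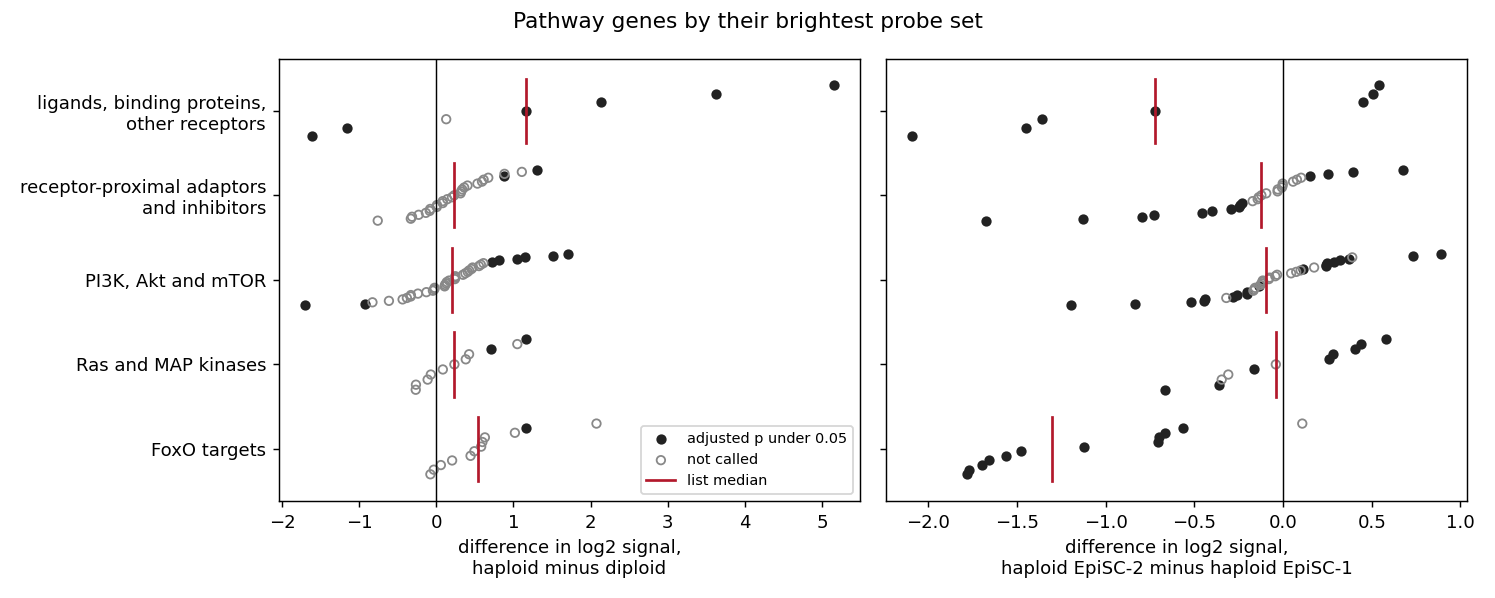
Difference in log2 signal of each tested gene of 5 pathway lists, by its brightest probe set, for haploid minus diploid (left) and haploid EpiSC-2 minus haploid EpiSC-1 (right). Filled points passed at an adjusted p under 0.05 and red bars are list medians. The FoxO target median is 0.54 on the left and -1.30 on the right.

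Genes known as FoxO targets were mostly lower in haploid EpiSC-2 than in the other haploid line. Of 16 listed genes 12 were tested, and 11 of these were called lower in haploid EpiSC-2 and 0 higher, while 30.3% of all tested genes were lower. Fbxo32 and Pdk4 averaged 58.6 and 50.7 in haploid EpiSC-2, under the filter, against 191.5 and 155.3 in haploid EpiSC-1, so they were tested through the lines where they are high and their place in this count is partly fixed by the filter. The median difference was -1.30, against -0.05 for all genes. Bnip3, a mitophagy receptor gene, averaged 4405 ± 154 in haploid EpiSC-2, 12270 ± 27 in haploid EpiSC-1, 4949 ± 130 in diploid EpiSC-2 and 4562 ± 108 in diploid EpiSC-1. Txnip, an inhibitor of glucose uptake, averaged 1908 ± 104, 6006 ± 111, 3618 ± 172 and 3528 ± 242 in the same order, and the cyclin gene Ccng2 759 ± 29, 2582 ± 37, 1428 ± 29 and 1267 ± 93.

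Bnip3 differed between the haploid lines by -1.48 ± 0.04, Txnip by -1.66 ± 0.06, Ccng2 by -1.77 ± 0.06 and the autophagy gene Gabarapl1 by -1.12 ± 0.08 (adjusted p = 2.32e-12, 3.35e-11, 2.27e-11 and 8.51e-08). Haploid EpiSC-1 was thus the high line for these 4 genes, and the other 3 lines lay lower. Cited2 was the gene that did not pass (0.11 ± 0.05, adjusted p = 0.0617). After median centring, which moved all genes by 0.16 at their median in this comparison, 11 were lower and 1 higher. Between the ploidies 1 of the 12 passed, beside 19.1% of all tested genes. It was Sesn3, a stress-response gene, at 1.17 ± 0.29 (adjusted p = 0.0124, and 0.114 with line means). Between the diploid lines 6 were higher and 1 lower in diploid EpiSC-2, beside 26.1% and 29.1% of all tested genes. The state of the FoxO proteins was not measured.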

How the data were processed

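Signals of 12 Affymetrix arrays, deposited by the authors as MAS5 intensity values on a linear scale, were used made with MAS5 per the submitters' processing notes, which give no version. Of 45101 probe sets, 64 controls were dropped and 34945 had 1 gene symbol in the platform annotation, 932 several and 9160 none. The filter kept 19837 probe sets of 11105 genes that averaged at least 5.97 on the log2 scale (a signal of 62.6), the median over probe sets. Log2 signals were tested with limma 3.58.1 in R 4.3.3, with an intensity trend and Benjamini-Hochberg adjustment over all tested probe sets, called under 0.05. Haploid and diploid cells were compared with the line as a random block (correlation 0.769, statmod 1.5.0). Lines were compared in a fit of 4 group means. In alternatives the correlation was estimated from every 20th probe set. A gene in a list stood by its brightest probe set. Tests were two-sided.

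The members and lists were chosen with earlier results of these data known. Genes named were all member probe sets, the 5 most like Grb10 and Irs4 by Pearson's r, up to 4 called genes of lowest p per pathway list between the ploidies and between the haploid lines (those between the diploid lines are not all printed), and 3 neighbours on each side; others named were chosen after their values were seen. The block fit and the fit of group means were each tried on simulated data, and the fit to line means was not. In that simulation 445 of the 582 probe sets called by the block fit were unchanged ones. A fit to line means is therefore reported beside it. Detection calls were not used here. The number of arrays limits the precision, and no pair of arrays was identical.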

Additional observations from a re-analysis of the deposited data

Results flagged for a closer look

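The shift from the diploid lines differed between the haploid lines for 5 member probe sets by the test of the difference itself, haploid EpiSC-2 minus haploid EpiSC-1, in a comparison where 49.5% of all tested probe sets pass. The difference was -0.52 for Grb14, 0.42 for Irs1, -0.34 for Igf1r probe set 1428967_at, -0.43 for Insr and -0.44 for Grb7. Irs4 stood out because all arrays of haploid EpiSC-2 lay above, and all arrays of haploid EpiSC-1 below, every diploid array, with a difference of 6.07 between them that was not tested. Groups of 3 arrays were not searched for single outlying arrays.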

How the results depend on the processing

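Between the ploidies 3157 probe sets passed. The count was 1386 with the filter at the 75th percentile, 601 with line means, 1813 with the mean of the probe sets of a gene, 5723 with no filter, 9133 with no line block and 1822 without the line haploid EpiSC-1, and it ran from 2618 to 2855 without single replicates. Between the haploid lines 9827 passed, with 6288 on the brightest probe set of each gene, 6441 at the 75th percentile, 4616 with gene means and 8784 to 9969 without single replicates. Between the diploid lines 10574 passed, with 6196, 6864 and 4675 under the same settings and 9503 to 10626 without single replicates. Settings on genes test fewer features. Centring on array medians gave 1286 higher and 1545 lower between the ploidies, against 1859 and 1298, and 6789 higher and 3363 lower between the haploid lines, against 4522 and 5305. Replicate numbers did not pair arrays (correlations of deviations from -0.035 to 0.081), and with the replicate block 2590, 9882 and 10588 probe sets passed. Grb14 then had an adjusted p of 0.0565. Signs turned for Igf1r between the haploid lines, -0.05, when arrays were centred (0.11) and without haploid EpiSC-1 replicate 3 (0.012, with a range of -0.15 to 0.012 without single replicates). Between the ploidies they turned for Irs2 without diploid EpiSC-1 (-0.057), and for Irs4, at -0.63, without diploid EpiSC-1 (0.11) and without haploid EpiSC-1 (2.40). The Grb10 difference between ploidies stayed between -4.88 and -2.23. Low signals limit Irs4 in haploid EpiSC-1 and the dim probe sets.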
